A study of Homo sapiens with 4 samples.

Results

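NEAT1 and MALAT1 are neighbouring nuclear long non-coding RNAs transcribed from the plus strand of chromosome 11. The members described here are the peaks whose midpoint lay on that strand inside NEAT1 (chr11:65190245-65213011, 22767 bases) or MALAT1 (chr11:65265233-65273940, 8708 bases), with positions in GRCh37 as the peak lists give them. They numbered 379 of the 278959 peaks in all 4 lists, 85 on NEAT1 and 294 on MALAT1. The peaks come from CLIP-seq of SAF-A, in which ultraviolet light crosslinks a protein to the RNA it touches before the complex is precipitated and its RNA sequenced. The cells were HCT116, an established human colorectal carcinoma line, with wild type SAF-A and no treatment named in the labels. There were 2 pull-down libraries, made with a SAF-A antibody, and 2 input libraries, made from the same kind of crosslinked lysate without the antibody and taken from the same size range of the membrane. The labels do not say that replicates were separate cultures, so the spread between these libraries may be technical. In the limma tests below, that spread is pooled over all features tested.

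SAF-A, scaffold attachment factor A or hnRNP U, is an abundant nuclear protein that binds both RNA and DNA. MALAT1 is an unspliced, highly abundant RNA held in nuclear speckles, the bodies rich in splicing factors. NEAT1 is the RNA on which paraspeckles are built, and it is made as a short isoform and as a long isoform that share their beginning. RefSeq lists both genes as lncRNA, NEAT1 under gene 283131 with 2 transcripts and MALAT1 under gene 378938 with 3.

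The lists held 29386 and 42256 peaks for input replicates 1 and 2, and 96061 and 111256 for pull-down replicates 1 and 2. Read depth is unknown, because the lists hold peaks and not reads, so peak numbers are given per 10000 listed peaks of the same library. Neither unit measures how much RNA was bound, and the amount of each RNA in the cells was not measured. Each peak carries a score set by the authors whose meaning is not stated in the sources used here, and it was used only to rank peaks within a list.

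MALAT1 took a smaller share of the pull-down lists than of the input lists, while the NEAT1 share did not pass the test. MALAT1 held 43 and 57 peaks in the inputs, against 86 and 108 in the pull-downs. Per 10000 listed peaks this was 14.6 and 13.5 in the inputs, against 8.95 and 9.71 in the pull-downs. The groups did not overlap, and the input mean of 14.1 ± 0.81 was 1.51 times the pull-down mean of 9.33 ± 0.53 (SD, n = 2 each). In limma, fitted with 10 kb windows of the genome as the other features, the log2 difference of pull-down from input was -0.60 (SE 0.14, adjusted p = 0.000135). This SE rested on 80 degrees of freedom, so it came largely from the trend over all features and not from the MALAT1 counts alone. Fitted without that trend, the SE was 0.28. Among the 40 windows and transcripts tested, 42.5% were called lower in the pull-downs and 85% were called in either direction, so a call was common in this table. The adjusted p in limma rose to 0.088 without input replicate 1, to 0.070 without input replicate 2, to 0.060 without pull-down replicate 1 and to 0.073 without the mean trend, and was 0.0499 without pull-down replicate 2.

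On NEAT1 the libraries listed 8 and 11 peaks in the inputs, against 29 and 37 in the pull-downs. Its shares were 2.72 and 2.60 per 10000 listed peaks in the inputs, while the pull-downs had 3.02 and 3.33. Both pull-downs lay just above both inputs, with means of 3.17 ± 0.22 and 2.66 ± 0.08 (SD, n = 2 each), but the Wilson intervals of all 4 libraries overlapped, the widest running from 1.38 to 5.37 in input replicate 1. The log2 difference in limma was 0.20 (SE 0.29, adjusted p = 0.516), which was not called. Centring each library on its median window moves all differences by the same amount. NEAT1 was then at 0.36 and MALAT1 at -0.44, on the same sides of 0. The median feature tested was at 0.29 before this step and at 0.46 after it, so NEAT1 lay below the median feature in both fits.

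**Figure D1:**
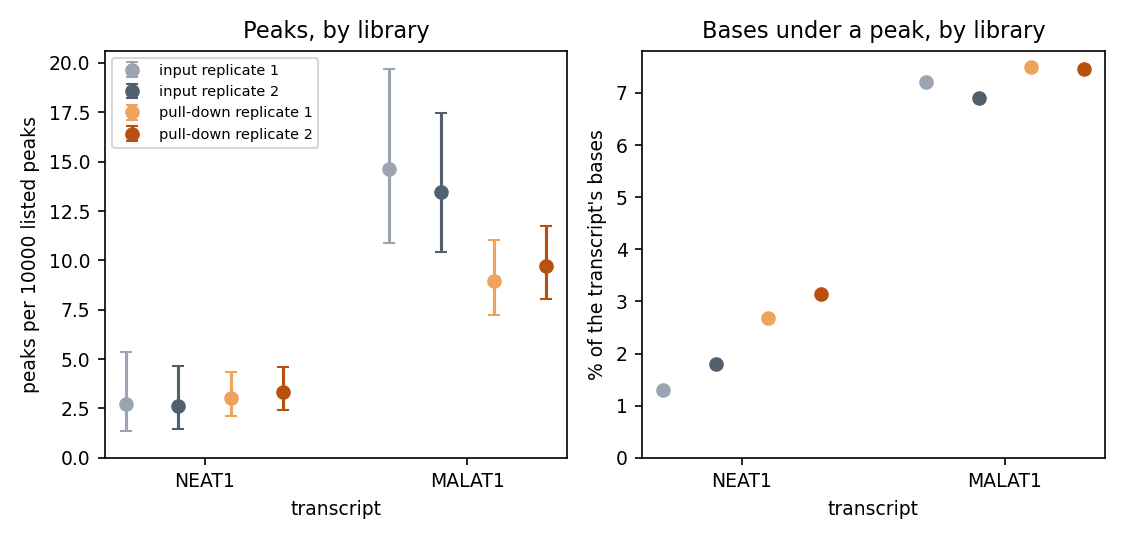
Left, peaks per 10000 listed peaks on each transcript in each of the 4 libraries. Bars show the 95% Wilson interval, which covers counting error only. Right, the percent of the transcript's bases under a peak, which is not scaled for the length of the list. MALAT1 sits between 13.5 and 14.6 in the inputs and between 8.95 and 9.71 in the pull-downs, while the intervals on NEAT1 overlap.

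The ratio between the transcripts within a library needs no division by the length of the list, though a longer list can still hold more of the weaker peaks. MALAT1 had 5.38 and 5.18 peaks for each NEAT1 peak in the inputs, against 2.97 and 2.92 in the pull-downs. The groups did not overlap, and the log2 ratio of NEAT1 to MALAT1 peaks was 0.84 higher in the pull-downs. An exact permutation test, two-sided, gave p = 0.333, and with 2 libraries against 2 no smaller p can be reached. The same p applies to every comparison of a single value below whose groups do not overlap.

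What NEAT1 showed depended on the scores of the peaks kept. When all lists were shortened to their 29386 best-scoring peaks, the length of the shortest, NEAT1 kept 8 and 6 peaks in the inputs but 0 and 1 in pull-down replicates 1 and 2. Its mean was then 2.38 ± 0.48 per 10000 in the inputs and 0.170 ± 0.24 in the pull-downs (SD, n = 2 each). This was the opposite order to the whole lists, and too low to be tested in limma. The cut fell at unlike scores, 10 and 13 in the inputs against 30 and 33 in pull-down replicates 1 and 2. Whether a score means the same in each list is not known. With the better-scoring 50% of each list kept, NEAT1 had 2, 4, 4 and 9 peaks, the groups overlapped, and the log2 difference was -0.59. The pull-down minus input difference in the log2 ratio of NEAT1 to MALAT1 also turned, to -2.18 in the lists of equal length with 0.5 added to both counts.

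MALAT1 kept its order in these shortened lists. At equal length it held 43 and 41 input peaks, against 22 for each pull-down, and limma gave a log2 difference of -0.92 (adjusted p = 0.000154). All 9 features that reached the minimum there were called lower (100%), with a median of -1.73, so the call was that of every feature tested. In the better-scoring 50% the difference was -0.98 (limma, adjusted p = 0.00036), where again all 7 features tested were called lower (100%), with a median of -2.04.

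**Figure D2:**
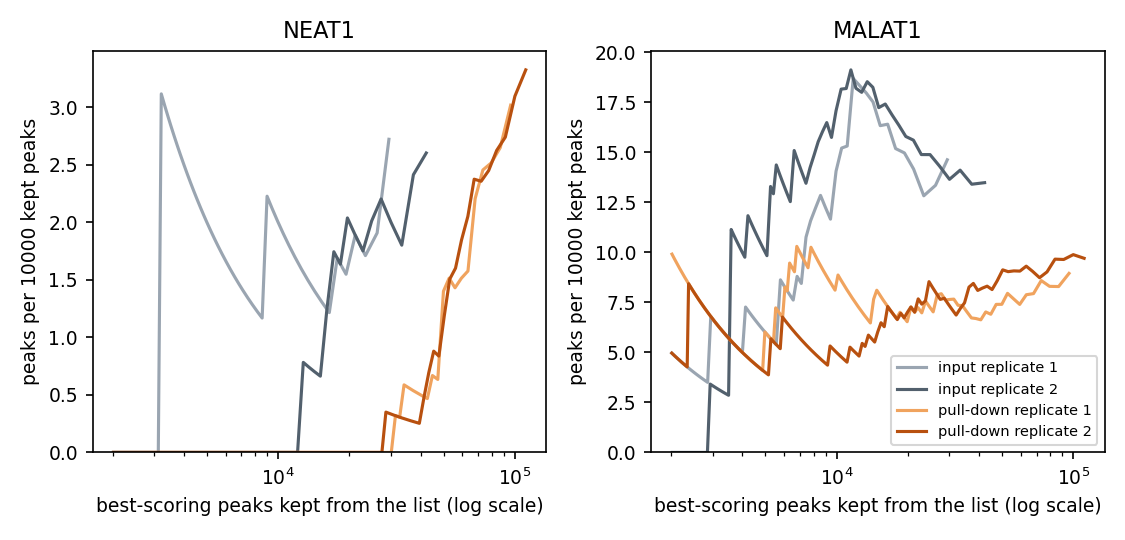
Peaks on each transcript per 10000 kept peaks (vertical) as lower-scoring peaks are added to a list (horizontal, log scale), with 1 line per library. The pull-down lines on NEAT1 stay near 0 until about the length of the shortest list and then climb to 3.02 and 3.33, while on MALAT1 both pull-down lines end below both input lines.

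The scores themselves place the transcripts differently in the lists. The best-scoring NEAT1 peak stood 10.6% and 28.6% of the way down the input lists, and 31.3% and 24.7% down those of pull-down replicates 1 and 2, so the groups overlapped. Only 10.3% and 21.6% of NEAT1 peaks scored above the median of their pull-down list, against 25% and 36.4% in the inputs, and the groups did not overlap. Most NEAT1 peaks thus came from the weaker part of the lists in both groups. The median NEAT1 peak scored above 19.4% and 35.5% of the input lists, and above 29.2% and 30.3% of the pull-down lists. By this measure the groups overlapped. MALAT1 peaks lay higher, the best of them 0.936% and 6.74% of the way down the input lists and 0.735% and 1.51% down the pull-down lists. On MALAT1 58.1% and 54.4% of input peaks scored above their list's median, against 40.7% and 44.4% of pull-down peaks.

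Per kilobase, both transcripts were among the more densely listed stretches of the genome on 1 strand, MALAT1 more so than NEAT1. MALAT1 carried 4.94 and 6.55 peaks per kb in the inputs, against 9.88 and 12.4 in the pull-downs. Only 1 of the 10 kb windows with a peak exceeded it in each input, and 0 did in each pull-down. NEAT1 carried 0.351 and 0.483 peaks per kb in the inputs, where 284 of 25954 and 289 of 35841 windows with a peak were denser. In the pull-downs NEAT1 carried 1.27 and 1.63, where 53 of 82035 and 39 of 91597 such windows were denser. Its place in that order was higher with each pull-down than with either input, by a count that was not tested.

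The windows most like each transcript were sought among the 38 windows tested. The measure was the Euclidean distance between log2 peaks per 10000 listed peaks per kb over the 4 libraries. A window needed a mean of at least 10 peaks to be tested, so sparser windows, which may lie closer to NEAT1, were not compared. NEAT1 lay nearest to the plus-strand window chr17:34150001-34160000, at a distance of 0.70, where the libraries listed 2, 4, 14 and 20 peaks. The next were the minus-strand windows chr11:5440001-5450000, also at 0.70, and chr9:21530001-21540000, at 0.82. MALAT1 had no close neighbour. Its nearest was the plus-strand window chr21:9820001-9830000 at 1.84, with 37, 37, 52 and 50 peaks, followed by the mitochondrial windows 1 to 10000 on the plus strand at 2.91 and 10001 to 20000 on the minus strand at 3.57.

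The beginning of NEAT1 carried more peaks than its length alone would give in all 4 libraries. Its first 4 kb, which hold the short isoform and make up 17.6% of the length, carried 3 of 8 and 6 of 11 input peaks and 15 of 29 and 16 of 37 pull-down peaks. These shares were 37.5% and 54.5% in the inputs, against 51.7% and 43.2% in the pull-downs, and the Wilson interval of input replicate 1, from 13.7% to 69.4%, includes the share of the length. The pull-downs fell inside the range of the inputs, and the difference of 1.46 percentage points changed sign without input replicate 1 (-7.06) and without pull-down replicate 1 (-2.78). Bases 8001 to 16000, or 35.1% of the length, carried 2, 1, 3 and 4 peaks in the same order of libraries.

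In the whole lists, the far end of the long isoform held more of the pull-down peaks. Bases 16001 to 22767 held 2 peaks in each input and 9 and 14 in pull-down replicates 1 and 2. Per 10000 listed peaks the means were 0.577 ± 0.15 in the inputs and 1.10 ± 0.23 in the pull-downs (SD, n = 2 each), without overlap (exact permutation p = 0.333). The input values rest on 2 peaks each, and the order turned in lists of equal length, with 2 and 1 peaks in the inputs and 0 in both pull-downs. In the better-scoring 50% the counts were 1, 1, 3 and 1, and the groups overlapped.

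Counted in 1 kb bins from its first base, NEAT1 had a peak in 7 of 23 bins in each input and in 14 and 18 in the pull-downs. The bin with the most pull-down peaks was the third, bases 2001 to 3000, with 6 in each pull-down and 1 in each input. In the genome-wide limma fit of 1 kb bins its log2 difference was 0.56 (SE 0.42, adjusted p = 0.204), which was not called. The first bin held 0 and 3 peaks in the inputs, against 5 and 3 in the pull-downs, so its inputs differed from each other more than the groups did. With all 4 libraries it was below the minimum for testing. It reached that minimum only once input replicate 1, which had no peak there, was left out, and its log2 difference was then -0.96. That value rests on 1 input with 3 peaks, so no call is drawn from it. The fourth held 1, 2, 3 and 3. There were 10 bins with pull-down peaks alone, 6 of them with a peak in both pull-downs, and 2 with input peaks alone. These bin counts are not scaled for the longer pull-down lists, and the same count over the genome was not made. Of sites merged over all 4 libraries, 26.8% on NEAT1 were in both pull-downs alone and 44.6% in 1 pull-down alone. Over the genome these shares were 22.2% and 47.7%.

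**Figure D3:**
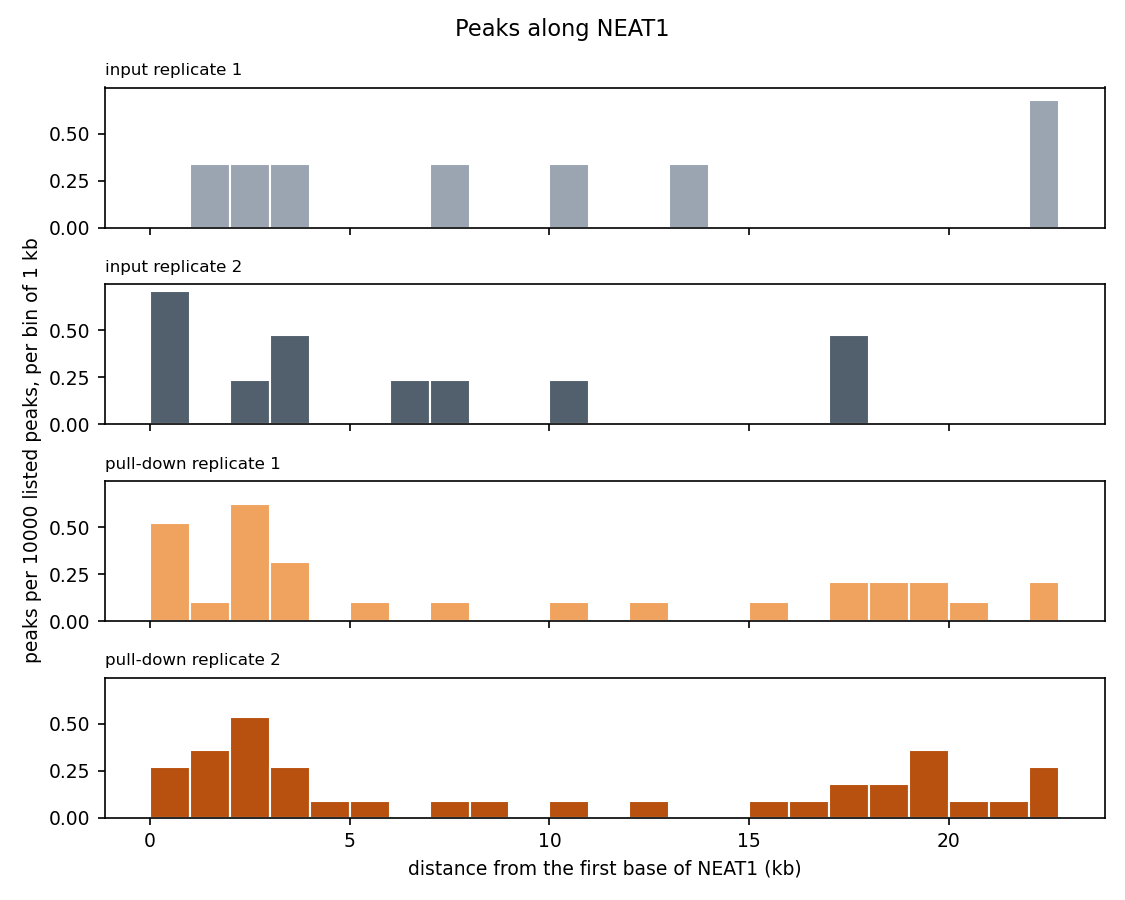
Peaks per 10000 listed peaks in 1 kb bins along NEAT1 (horizontal, kb from its first base), with 1 panel per library on the same vertical scale. The first 4 kb carry 37.5% to 54.5% of the peaks of a library, and the pull-downs list a further group beyond 16 kb that holds 9 and 14 peaks against 2 in each input.

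MALAT1 peaks were spread over its whole middle. The first 4 kb carried 46.5% and 45.6% of its peaks in the inputs, against 50.0% and 47.2% in the pull-downs, a difference of 2.55 percentage points without overlap (exact permutation p = 0.333). In the better-scoring 50% of the lists the difference was -7.47 points.

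No library listed a peak over the first 1283 bases of the MALAT1 interval. Peak cover began at base 1285 in input replicate 1 and at base 1284 in the other 3 libraries. RefSeq holds MALAT1 transcripts with different starts, and 2 of them are printed to show how far apart such starts lie. On GRCh38.p14 they are at chr11:65497738-65497787 and chr11:65499045-65499094, plus strand, 1307 bases apart. The first 50 bases of each follow, with the first transcribed base as a capital. The peaks were not placed on these sequences, because the builds differ, and which start HCT116 cells use was not measured here.

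MALAT1 upstream start: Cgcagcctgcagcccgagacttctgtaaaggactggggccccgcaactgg
MALAT1 downstream start: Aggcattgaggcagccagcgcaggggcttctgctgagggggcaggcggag

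Between these ends, 7 bins of 1 kb carried peaks in every library and were tested. The bin at bases 5001 to 6000 held 9, 11, 14 and 14 peaks and was lower in the pull-downs per listed peak, with a log2 difference of -1.08 (limma, SE 0.31, adjusted p = 0.000994). The bin at 7001 to 8000 held 8, 9, 10 and 17 peaks, with a difference of -0.96 (limma, SE 0.30, adjusted p = 0.0025). The bin at 1001 to 2000 held 8, 10, 12 and 19 peaks, with a difference of -0.83 (limma, SE 0.31, adjusted p = 0.0113). Of the 83 bins tested over the genome 74.7% were called lower in the pull-downs, so 3 of 7 MALAT1 bins did not exceed the background. Without pull-down replicate 1 only the bin at 5001 to 6000 was called, and without pull-down replicate 2 only the other two. Without input replicate 1 the bin at 1001 to 2000 was at -0.72 (limma, adjusted p = 0.062) and lost its call.

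The bin at bases 2001 to 3000 held the most pull-down peaks, with 18 and 19 against 5 and 10 in the inputs. Its log2 difference was -0.23 (limma, adjusted p = 0.493), and that of the bin at 4001 to 5000, with 2, 5, 7 and 13 peaks, was -0.11 (limma, adjusted p = 0.725). These 2 bins therefore did not pass the test, though whether they differ from the called bins was not tested. The bins at 3001 to 4000 and at 6001 to 7000 were not called either. Their differences were -0.60 (limma, adjusted p = 0.0547) and -0.53 (limma, adjusted p = 0.0838). In both, the 2 pull-downs lay below the 2 inputs per listed peak. The bases beyond 8000 held 0 peaks in either input, which allows up to 1.02 and 0.710 per 10000 listed peaks, and 2 in each pull-down.

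**Figure D4:**
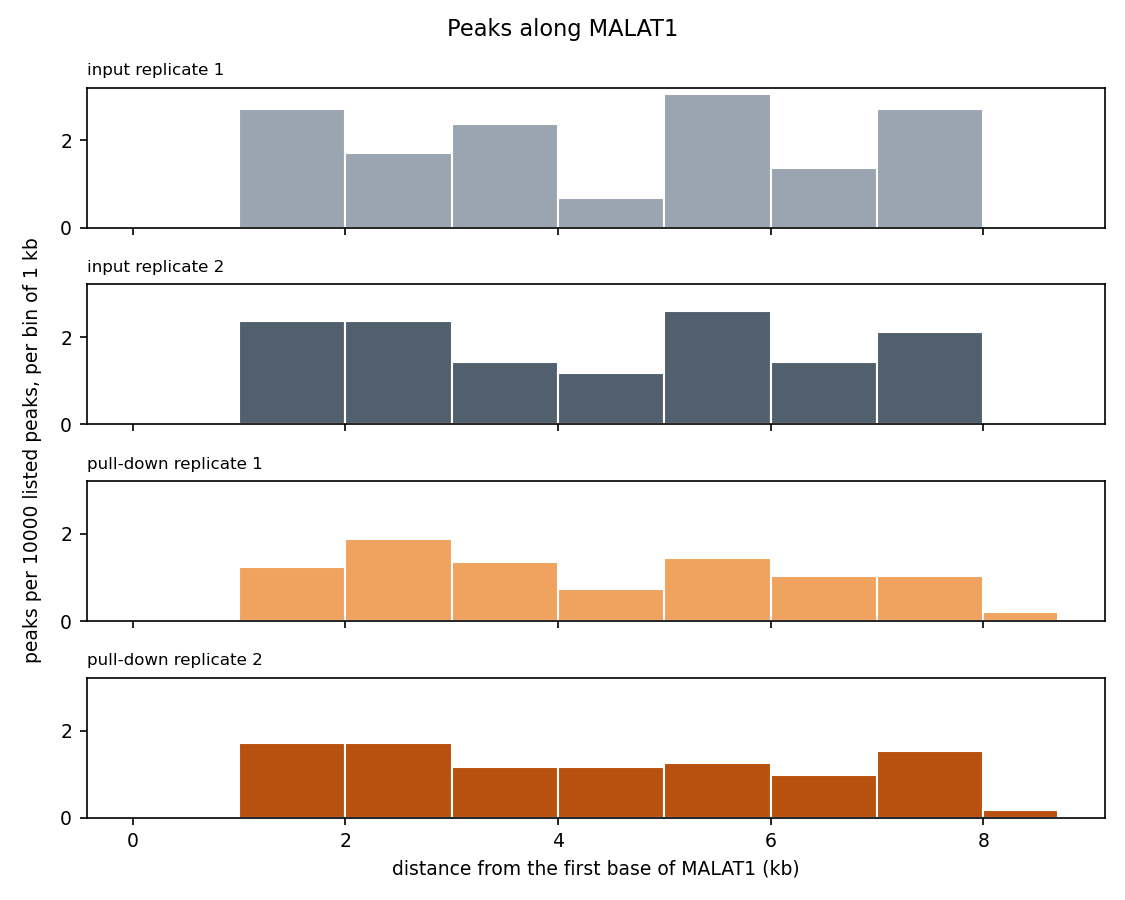
Peaks per 10000 listed peaks in 1 kb bins along MALAT1 (horizontal, kb from its first base), with 1 panel per library on the same vertical scale. The first bin is empty in all 4 libraries, the bins at 1 to 2, 5 to 6 and 7 to 8 kb are lower in the pull-downs, and the last bin has peaks in the pull-downs only.

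MALAT1 peaks were shorter than the lists as a whole, and more so in the pull-downs. Their median width was 10 and 7 bases for the inputs and 4 for both pull-downs, while the lists as a whole had medians of 14 to 16. Peaks of at most 5 bases made up 3 of 43 and 21 of 57 MALAT1 peaks in the inputs and 53 of 86 and 73 of 108 in the pull-downs. These were 6.98%, 36.8%, 61.6% and 67.6%, against 2.28%, 1.95%, 1.07% and 0.899% of the lists. The groups did not overlap, although the inputs lay far apart. A transcript with 0.0895% and 0.0971% of the pull-down peaks thus held 5.15% and 7.30% of their peaks of at most 5 bases.

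MALAT1 was not alone in this. Of the 38 other dense windows, 22 had no pull-down peak of at most 5 bases and the median share was 0%, but 2 had a share above 50%. They were chr1:91850001-91860000 on the minus strand, at 79.3%, and chr21:9820001-9830000 on the plus strand, at 67.6%. The latter was also the window nearest to MALAT1, and 82.4% of its input peaks were of at most 5 bases.

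Without these shortest peaks, an alternative chosen after the widths had been seen, MALAT1 kept 40 and 36 peaks in the inputs, against 33 and 35 in the pull-downs. Per 10000 listed peaks of over 5 bases this was 13.9 and 8.69 in the inputs, against 3.47 and 3.17 in the pull-downs, with an input mean 3.40 times that of the pull-downs. The log2 difference in limma moved from -0.60 to -1.73 (SE 0.27, adjusted p = 3.23e-08), in a fit where 37.8% of the 37 features were called lower. The 2 inputs then differed from each other by more than they did in the whole lists, with a mean of 11.3 ± 3.7 (SD, n = 2) against 3.32 ± 0.21 (SD, n = 2) in the pull-downs.

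NEAT1 peaks were wider and only a few were this short. Their median width was 38 and 31 bases in the inputs, against 17 and 16 in the pull-downs, without overlap between the groups. There were 0 peaks of at most 5 bases in either input and 2 in each pull-down.

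**Figure D5:**
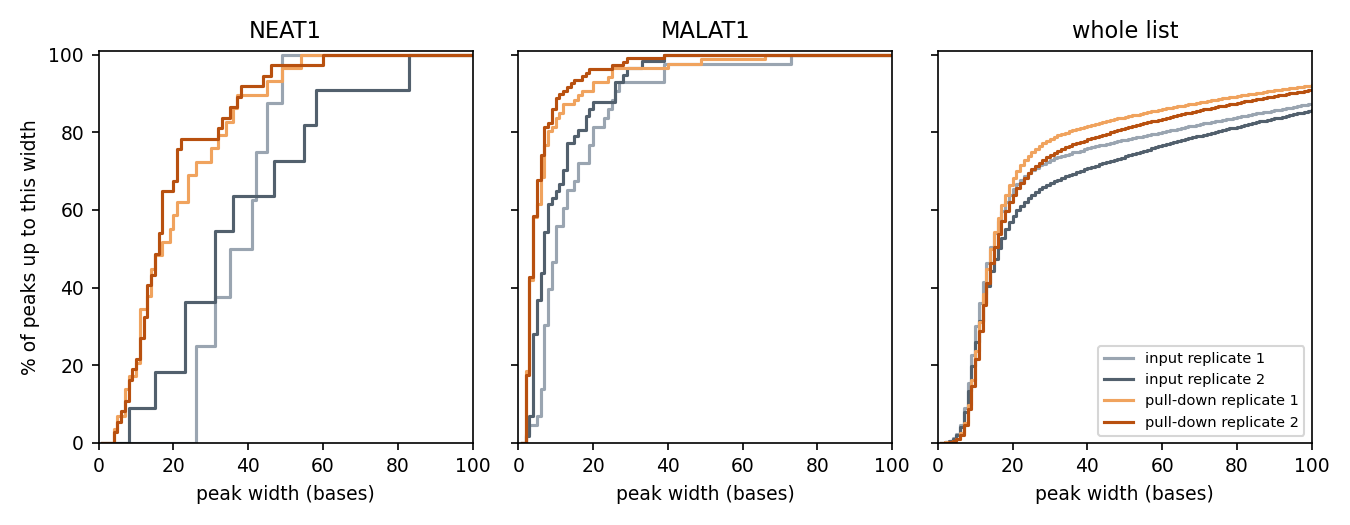
Cumulative percent of peaks up to a given width (horizontal, bases) on NEAT1, on MALAT1 and in the whole list, with 1 line per library. At 5 bases the MALAT1 lines stand at 6.98% and 36.8% in the inputs, against 61.6% and 67.6% in the pull-downs, while the whole lists stand at 2.28% or less.

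Although the pull-downs listed more MALAT1 peaks, they covered about the same number of its bases. Peaks covered 627 and 601 bases in the inputs, against 653 and 649 in the pull-downs, or 7.20%, 6.90%, 7.50% and 7.45% of the transcript. The difference of 0.42 percentage points had no overlap (exact permutation p = 0.333) but was -1.33 with peaks of over 5 bases, -2.44 in lists of equal length, -0.011 in the better-scoring 50% and -0.040 with peaks of at least 50 bases. On NEAT1 the covered bases numbered 295 and 410 in the inputs, against 609 and 716 in the pull-downs, or 1.30%, 1.80%, 2.67% and 3.14%. Here the pull-down mean of 2.91% ± 0.33 lay above the input mean of 1.55% ± 0.36 (SD, n = 2 each) without overlap (exact permutation p = 0.333). The difference turned to -1.15 points in lists of equal length and to -0.18 with peaks of at least 50 bases. These percentages are not scaled for the length of the lists. Per megabase of peak width listed in a library, the input means were 255 ± 26 bases on NEAT1 and 464 ± 166 on MALAT1. The pull-down means were 201 ± 11 and 199 ± 34 (SD, n = 2 each). By that scaling both pull-downs lay below both inputs on each transcript, without overlap (exact permutation p = 0.333).

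The transcripts also differed in how many of their pull-down peaks an input listed. A peak counted as found again when it shared at least 1 base on the same strand. Between the pull-downs, 69.0% of the NEAT1 peaks of replicate 1 and 54.1% of those of replicate 2 were found again, and 76.7% and 66.7% of the MALAT1 peaks, against 65.6% and 56.7% of the lists. In an input, 6 of 29 and 5 of 37 NEAT1 pull-down peaks were found (20.7% and 13.5%), against 46 of 86 and 57 of 108 on MALAT1 (53.5% and 52.8%) and 29.9% and 26.6% of the lists. MALAT1 stood above the lists in both pull-downs and NEAT1 below them. On NEAT1 the Wilson intervals, 9.85% to 38.4% and 5.91% to 28.0%, reach the shares of the lists.

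Pull-down peaks that overlapped an input peak scored higher on both transcripts. On MALAT1 their median score was 25.5 and 27, against 13 in each pull-down for peaks with no input peak. On NEAT1 the medians were 17 and 20 with an input peak and 13 without. Peak width on MALAT1 followed the same split, with medians of 7 and 6 bases against 3.

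Merged over both pull-downs, NEAT1 had 20 sites, of which 15 had no input peak (75%, 95% Wilson interval 53.1% to 88.8%). MALAT1 had 66, of which 24 had none (36.4%, 25.8% to 48.4%). Over the genome the share was 57.0%, or 35889 of 62968. The NEAT1 sites free of input lay at both ends, 8 in the first 4 kb, 2 between bases 8001 and 16000 and 5 beyond base 16000. The counts depended on the lower scores, because lists of equal length left 0 such sites on NEAT1 and 1 on MALAT1, and the better-scoring 50% left 1 and 8.

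On NEAT1 the input-free sites with the best mean rank were chr11:65192711-65192727 (scores 19 and 20 in pull-down replicates 1 and 2) and chr11:65192880-65192899 (16 and 23), both in the densest bin. The next were chr11:65190779-65190792 (19 and 19), near the beginning, and chr11:65212623-65212664 (19 and 17), near the far end. None of these 4 scored above 23. Just 2 sites were listed in all 4 libraries, chr11:65193507-65193573 with scores of 54, 21, 15 and 25, and chr11:65200427-65200469 with 13, 25, 27 and 13. The first of these held the best-scoring NEAT1 peak of input replicate 1. No NEAT1 site was found in both inputs without a pull-down peak.

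On MALAT1, 1 input-free site stood out from the rest by score and width. It was chr11:65273475-65273495, bases 8243 to 8263 of the transcript, 21 bases wide, with scores of 63 and 53. It was the last stretch of MALAT1 under a peak in any library, and the only input-free MALAT1 site that remained in lists of equal length or among peaks of over 5 bases. Of the 24 such sites, 17 were at most 5 bases wide and 23 at most 10. The next by rank were chr11:65272926-65272929 (scores 20 and 21), chr11:65268216-65268221 (22 and 18) and chr11:65271368-65271377 (30 and 14).

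The MALAT1 sites of all 4 libraries with the best mean rank were the following. At chr11:65267094-65267167, bases 1862 to 1935, the scores were 165 and 60 in the inputs, against 205 and 135 in the pull-downs. At chr11:65270488-65270557, bases 5256 to 5325, they were 46 and 30 in the inputs, against 216 and 156 in the pull-downs. The site chr11:65266516-65266555, which opens the covered stretch at base 1284, had 57, 60, 92 and 69. The site at base 5256 ranked 4003 and 9524 in the input lists and 706 and 1684 in the pull-down lists, while that at base 1862 ranked 275, 3500, 820 and 2340. At base 5256 both pull-down ranks were thus better than both input ranks, although the pull-down lists are longer. At base 1862 the ranks of the groups overlapped. The ranks come from lists of different length, and their differences were not tested.

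In all, 29 of the 124 merged MALAT1 sites (23.4%) and 2 of the 56 NEAT1 sites (3.57%) were in all 4 libraries. Over the genome the share was 10.3%, or 16574 of 161657 merged sites. In both inputs but no pull-down there were 3 MALAT1 sites (2.42%), near the 2.81% of merged sites over the genome. They were chr11:65272232-65272251 (scores 30 and 36 in the inputs), chr11:65267269-65267275 (20 and 25) and chr11:65272999-65273014 (11 and 28).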

How the data were processed

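Per the labels' protocols, HCT116 cells were crosslinked, lysed and treated with DNase and RNase A, and input and SAF-A precipitate were run side by side before library making. The authors deposited 1 peak list per library, so peaks were called per sample. The deposited values are positions, in bases, and a whole-number score of unstated meaning. STAR, featureCounts and GRCh38 are named in the submitters' processing notes, without versions. Not given in the sources used here are the peak caller and its threshold. The deposited positions run past GRCh38 chromosome ends, so they were taken as GRCh37, are given 1-based, and were not converted. RefSeq (GRCh38.p14) served only for names and for the printed starts.

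The members, lists and rules for named items were chosen with earlier results of these data known. Peaks were assigned by midpoint and strand. After 0.5 was added to each count, peaks per 10000 listed peaks were taken to log2, for 10 kb windows on 1 strand plus both transcripts (mean of at least 10 peaks) and for 1 kb bins (mean of at least 3), tested in limma 3.58.1 (R 4.3.3; lmFit and trended eBayes). The spread in these fits was pooled over features, with 80 degrees of freedom for windows and transcripts and 166 for bins. P-values were adjusted by Benjamini-Hochberg over all features tested, with a threshold of 0.05. The script was tested on simulated data. Single values were compared by two-sided exact permutation tests. Sites merge peaks of both libraries of a group that overlap by at least 1 base. Wilson intervals (95%) and floors of 3 counts cover counting error only, and neighbouring peaks are not independent. Python 3.11.15 with pandas 2.3.3, numpy 2.4.6 and scipy 1.17.1 was used.

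Named sites were, per transcript, the 4 input-free sites of both pull-downs, the 3 sites of all 4 libraries and the 3 of both inputs without a pull-down peak with the best mean score rank. Named bins were the 3 with the most pull-down peaks, the 3 with the most input peaks and every called bin, and named windows the 3 nearest each transcript. Alternatives were other pseudocounts, minimums, window sizes, centring, trend, replicate block, list lengths, widths, overlaps and segment lengths, and leaving out each library. Using peaks of over 5 bases, nuclear features alone, and 0.5 added to the ratio's counts were chosen after seeing the data. The lists of paraspeckle and speckle protein genes were not run, because no annotation of the files' build was used here.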

Additional observations from a re-analysis of the deposited data

How the results depend on the processing

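Leaving out 1 library each moved the MALAT1 log2 difference between -0.66 and -0.54, the features called between 18 and 52, the called bins between 1 and 5, the NEAT1 first-4 kb difference between -7.06 and 9.98 points, and the input-free sites from 16 to 32 on NEAT1 and from 29 to 51 on MALAT1. Without a mean trend the MALAT1 difference of -0.60 lost its call. Lists of equal length gave a NEAT1 difference of -3.10, 9 features called (34 in the whole lists), 5 called bins, covered-base differences of -1.15 (NEAT1) and -2.44 points (MALAT1), and 0 and 1 input-free sites; the ratio was -2.18 with 0.5 added and undefined without, since pull-down replicate 1 kept 0 NEAT1 peaks. The better-scoring 50% gave -0.59 for NEAT1, 7 features, 5 bins, first-4 kb differences of -16.7 (NEAT1) and -7.47 points (MALAT1), -0.011 points of MALAT1 bases, and 1 and 8 sites. Narrow peaks, under 50 bases, gave 22 features, 5 bins and -8.63 points in the first 4 kb of NEAT1. Wide peaks gave covered-base differences of -0.18 (NEAT1) and -0.040 (MALAT1) and 0 sites on each, and their limma fits had too few features to run. Peaks of over 5 bases gave 6 bins, -1.95 points in the first 4 kb of NEAT1, -1.33 points of MALAT1 bases and 1 MALAT1 site. A minimum of 20 or 5 peaks called 7 or 158 features, 100 kb windows 147, and an overlap of 50% of both peaks left 9 NEAT1 sites. With the replicate number as a block (replicate block), the differences were 0.20 and -0.60 (limma adjusted p for MALAT1 0.026), with 25 features and 4 bins called. Deviations of same-numbered libraries correlated at -0.04 over the 40 features, at -0.02 over 218 with a minimum of 5 peaks and at 0.17 over 190 with 100 kb windows; with 2 pairs and no such statement in the labels, the numbers were not taken to pair the libraries.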

Other observations

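The plus-strand surroundings of both transcripts held few peaks. The 50 kb before NEAT1 listed 2 and 1 peaks in input, then 3 and 1 in pull-down replicates 1 and 2. The 52221 bases between the transcripts had 0, 1, 1 and 3, and the 50 kb after MALAT1 had 2, 3, 3 and 1. These are 0.06 peaks per kb or fewer in every library, against 0.351 to 1.63 on NEAT1 and 4.94 to 12.4 on MALAT1. On the minus strand both intervals held 0 peaks in all 4 libraries, which allows up to 1.02 and 0.710 per 10000 listed peaks for input replicates 1 and 2, with 0.312 and 0.270 for pull-down replicates 1 and 2.

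Base by base, the libraries of a group shared different amounts of each transcript. On MALAT1 399 bases were under a peak in both inputs and 421 in both pull-downs, with 227 in all 4 libraries, of 1177 under any peak. On NEAT1 these were 103, 292 and 17 of 1441.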
